A study of Rattus norvegicus with 6 samples.

Results

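The 5 features CD44, Syndecan-1, Thy-1, Cx43 and Coxsackie and adenovirus receptor homolog are the named adhesion receptors and junction proteins described here. They were chosen by their gene names on a spotted rat array, and they are 5 of its 311 named features and 23 of its 1760 spots. CD44, Cx43 and the receptor homolog had 4 spots each, Thy-1 had 5 and Syndecan-1 had 6. The study compared RNA of rat ovarian surface epithelial cells on 6 two-colour arrays, each of which set 1 sample in one dye against RNA of untreated ROSE199 cells in the other. The samples were ROSE199 cells stably transfected with an HMGA2 expression plasmid (2 arrays), ROSE199 cells with the empty vector (1 array), ROSEA25 cells given siRNA against HMGA2 (siHMGA2, 2 arrays) and ROSEA25 cells given siRNA against EGFP (siEGFP, 1 array). ROSEA25 was read as a line transformed by RAS, because the protocol calls the siRNA-treated cells ROSE-RAS. That name does not say which RAS gene. The stable transfectants grew in 10 µg/ml blasticidin, and the ROSEA25 cells received their siRNA at 0.2 µM 2 times, 24 h apart, and were harvested 48 h after the first dose. All cells had 10% serum, and whether a stable line was 1 clone or a pool was not given in the sources used here.

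The 2 arrays of HMGA2 and the 2 of siHMGA2 carried the sample in opposite dyes and were taken as labellings of 1 RNA each, so no group had replicate cultures and no p-value is given. Each value is a log2 ratio of the sample over ROSE199, averaged over a feature's spots, and a difference between groups comes from a fit of 4 group values and 1 dye term over all 311 features. The errors below are pooled standard errors from that fit and hold the spread of labelling and hybridization only. They are the same for every feature in a comparison, so they do not give a feature's own spread. The pooled SD behind them was 0.17, and the root mean square residual over all features was 0.23. A difference was called higher or lower where its size was at least 1 on the log2 scale and over 2 standard errors, with the same sign on the arrays that had the sample in Cy5. The scans of both HMGA2 arrays were quantified on day 2 and those of the other 4 arrays on day 1, so HMGA2 and quantification day cannot be told apart. The labels were checked by 2 features. HMGI-C, an older name of HMGA2, was at 3.70 and 3.33 on the HMGA2 arrays and at 0.26 on the empty vector array, and at 1.20 and 1.59 on the siHMGA2 arrays and 2.40 on the siEGFP array. K-ras was at 4.25 to 4.82 on the 3 ROSEA25 arrays, against -0.29 to 0.03 on the 3 arrays of transfected ROSE199 cells. The 6 surface epithelium markers and the 5 mesenchymal markers listed for the cell type were above blank spots in both channels of all 6 arrays. In siEGFP cells 5 of the 6 and 5 of the 5 were called lower than in ROSE199, beside 15.4% of all features. The part of these markers in the results that follow was not tested. In such bulk RNA, fewer cells of a type and less RNA per cell cannot be told apart.

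CD44 is the cell surface receptor for hyaluronan, and Syndecan-1 is a transmembrane proteoglycan whose heparan sulfate chains bind growth factors and matrix proteins. Thy-1 is a small glycoprotein held in the membrane by a lipid anchor and is widely used as a marker of fibroblasts and other mesenchymal cells. Cx43 (Gja1) is the main connexin of gap junctions in many tissues, through which neighbouring cells exchange ions and small molecules, and the Coxsackie and adenovirus receptor (Cxadr) is an adhesion molecule of epithelial tight junctions. Epithelial cells that are transformed by an active RAS often lose junction proteins.

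In RefSeq's annotation of the rat genome (GRCr8) the 5 genes lie on 5 chromosomes. Cd44 spans chr3:109610824-109699776, Sdc1 chr6:37282041-37304503, Thy1 chr8:53286396-53291541, Gja1 chr20:36302490-36315010 and Cxadr chr11:30469778-30516990. The promoters of 3 of the 5 genes were matched by symbol in RefSeq's table for that build, and these 3 are shown because they were the ones found. Each runs 5′ to 3′ on the gene's own strand, over 250 bases before and 50 after the start site that the table uses. That site is the first base of the annotated gene for Sdc1, but lies 74 bases inside the annotated gene for Gja1 and 352 bases inside it for Cd44, whose window lies wholly within the gene. Capitals mark TGACTCA, the motif that AP-1 factors bind, and GGGCGG, the core motif that Sp1 binds, searched on both strands. RefSeq's table listed no promoter under the symbols Thy1 and Cxadr.
CD44, chr3:109699375-109699674, minus strand: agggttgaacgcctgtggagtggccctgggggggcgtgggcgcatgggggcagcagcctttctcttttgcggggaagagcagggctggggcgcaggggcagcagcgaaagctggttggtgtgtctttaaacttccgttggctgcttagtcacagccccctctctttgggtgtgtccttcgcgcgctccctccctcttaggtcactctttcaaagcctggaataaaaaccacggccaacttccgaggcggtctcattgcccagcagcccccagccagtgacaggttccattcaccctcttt
Syndecan-1, chr6:37281791-37282090, plus strand: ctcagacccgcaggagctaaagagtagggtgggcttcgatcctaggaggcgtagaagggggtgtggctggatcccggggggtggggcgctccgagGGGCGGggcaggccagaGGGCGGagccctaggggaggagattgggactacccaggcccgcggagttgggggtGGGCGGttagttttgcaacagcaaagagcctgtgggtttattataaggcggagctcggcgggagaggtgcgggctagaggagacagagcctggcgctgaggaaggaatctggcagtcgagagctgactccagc
Cx43, chr20:36302314-36302613, plus strand: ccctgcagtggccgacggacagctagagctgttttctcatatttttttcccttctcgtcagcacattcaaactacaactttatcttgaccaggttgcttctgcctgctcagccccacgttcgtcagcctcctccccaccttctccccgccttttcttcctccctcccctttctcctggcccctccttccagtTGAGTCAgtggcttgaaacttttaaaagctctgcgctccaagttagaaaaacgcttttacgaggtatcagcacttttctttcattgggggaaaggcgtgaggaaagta
The Cd44 window held neither motif. The Sdc1 window held GGGCGG at 3 places, starting -155, -138 and -83 bases from the start site. The Gja1 window held TGACTCA once, read as TGAGTCA on the gene's strand, at -58 from the table's start site and 16 bases inside the annotated gene. No window held TATAAA on either strand. Of 33465 rat promoters of the same length, 4.63% held TGACTCA, 33.1% held GGGCGG and 14.2% held TATAAA on either strand. The share of G and C was 60.3% for Cd44, 64.7% for Sdc1 and 50.3% for Gja1, beside a median of 51.7% over all those promoters. A match of letters describes the window and says nothing of binding.

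CD44 had the largest ratios of the 5. It was at 1.48 and 2.11 on the siHMGA2 arrays and at 2.63 on the siEGFP array, and at 0.21 and 0.18 on the HMGA2 arrays and 0.53 on the empty vector array. The 3 ROSEA25 ratios all lay above the 3 ratios of transfected ROSE199 cells. Every one of the 4 spots gave the same picture on the siEGFP array, with ratios of 2.50 to 2.70 (SD 0.09) and sample signals of 10934 to 13236. CD44 was called higher in siEGFP cells than in ROSE199, by 2.78 ± 0.19 on the log2 scale, or 6.87-fold, and was rank 6 of the 311 features from the top. It was also called higher in siHMGA2 cells than in ROSE199, by 1.79 ± 0.12, or 3.47-fold. Each of the 4 CD44 spots, fitted alone, passed the call in both comparisons, by 2.43 to 3.14 in siEGFP cells and by 1.41 to 2.18 in siHMGA2 cells.

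Of the 5 members, 1 was called higher and 1 lower in siEGFP cells against ROSE199, where 26.7% of all features were called (11.3% higher and 15.4% lower). In siHMGA2 cells against ROSE199, 1 of the 5 was called higher and none lower, beside 8.68% of all features called higher and 10.3% lower (19% in either direction). With so few members, neither count sets them apart from the array as a whole.

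**Figure D1:**
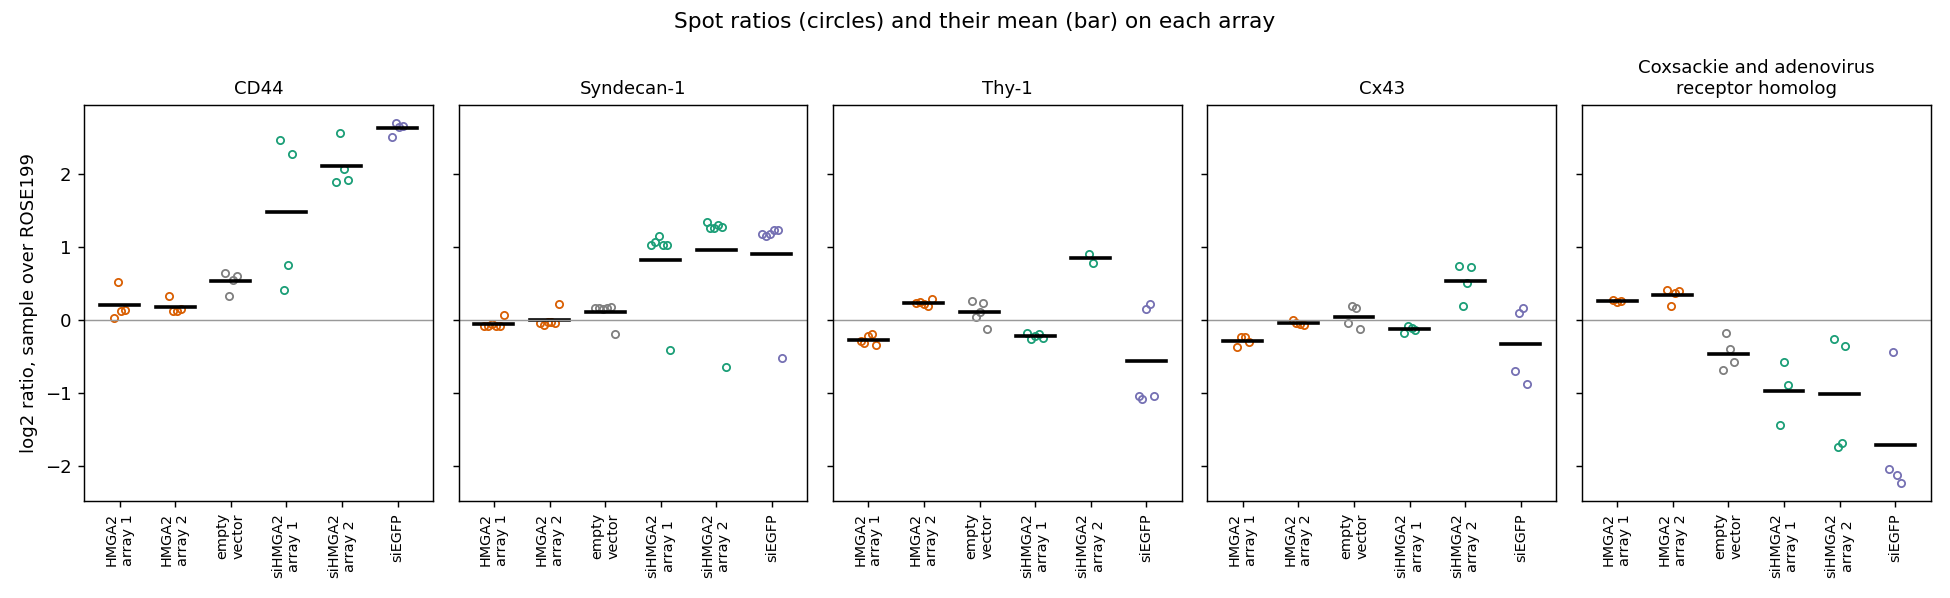
Log2 ratios of the sample over ROSE199 (vertical axis) on each of the 6 arrays (horizontal axis), with a panel for each of the 5 features. Circles are single spots and bars their mean. The 4 CD44 spots lie between 2.50 and 2.70 on the siEGFP array but spread over 0.41 to 2.47 on siHMGA2 array 1, and 1 Syndecan-1 spot lies apart from the other 5 on all 6 arrays.

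Between the 2 siRNAs, CD44 was lower in siHMGA2 cells than in siEGFP cells by a size that the call rule narrowly missed. The log2 difference was -0.99 ± 0.22, with -1.15 on the Cy5 arrays alone, and it was rank 8 of 311 from the bottom. Under 9 of 15 other processing settings it passed the call. Over the 15 its value ran from -2.68 with the authors' deposited ratios to -0.15 with arrays scaled to one spread. Those 9 were not independent. The Cy5 arrays alone, a dye term for each quantification day, and leaving out either HMGA2 array or siHMGA2 array 2 all gave the same -1.15. That value is siHMGA2 array 1 minus the siEGFP array. The spots of that pair of groups disagreed. On siHMGA2 array 1 the spots with sample signals of 3218 and 2157 had log2 ratios of 2.47 and 2.28, while the spots with signals of 214 and 328 had ratios of 0.41 and 0.75. On the empty vector array the same pairs were bright and dim, with ratios of 0.65 and 0.60 on the bright pair (signals of 2358 and 2025) and 0.33 and 0.55 on the dim pair (276 and 623). On siHMGA2 array 2 the ratios were 1.89, 2.56, 2.07 and 1.92, with the highest ratio on the brightest spot. Fitted spot by spot, the difference between siHMGA2 and siEGFP cells was -0.26 and -0.48 for the pair that was bright on siHMGA2 array 1, and -1.65 and -1.56 for the pair that was dim there. With each spot weighted by its signal, a setting chosen after the spots were seen, the difference was -0.44. CD44's spot SD of 1.05 on siHMGA2 array 1 was larger than that of 99.7% of features there. The call of a lower CD44 after siHMGA2 therefore changes with which spots are averaged, and the reason for their spread was not tested.

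The authors' deposited table gives CD44 log2 ratios of 0.26 and 0.59 for the siHMGA2 arrays and 3.07 for the siEGFP array. It gives 0.30 and 0.12 for the HMGA2 arrays and 0.38 for the empty vector array. On both siHMGA2 arrays the deposited ratio lay below that of each of the 4 spots computed here, of which the lowest was 0.41 on array 1 and 1.89 on array 2. The deposited columns otherwise followed these ratios over the 311 features, with correlations of 0.84 to 0.95 between values of the same arrays. The centring and background correction behind the deposited values are unknown.

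**Figure D2:**
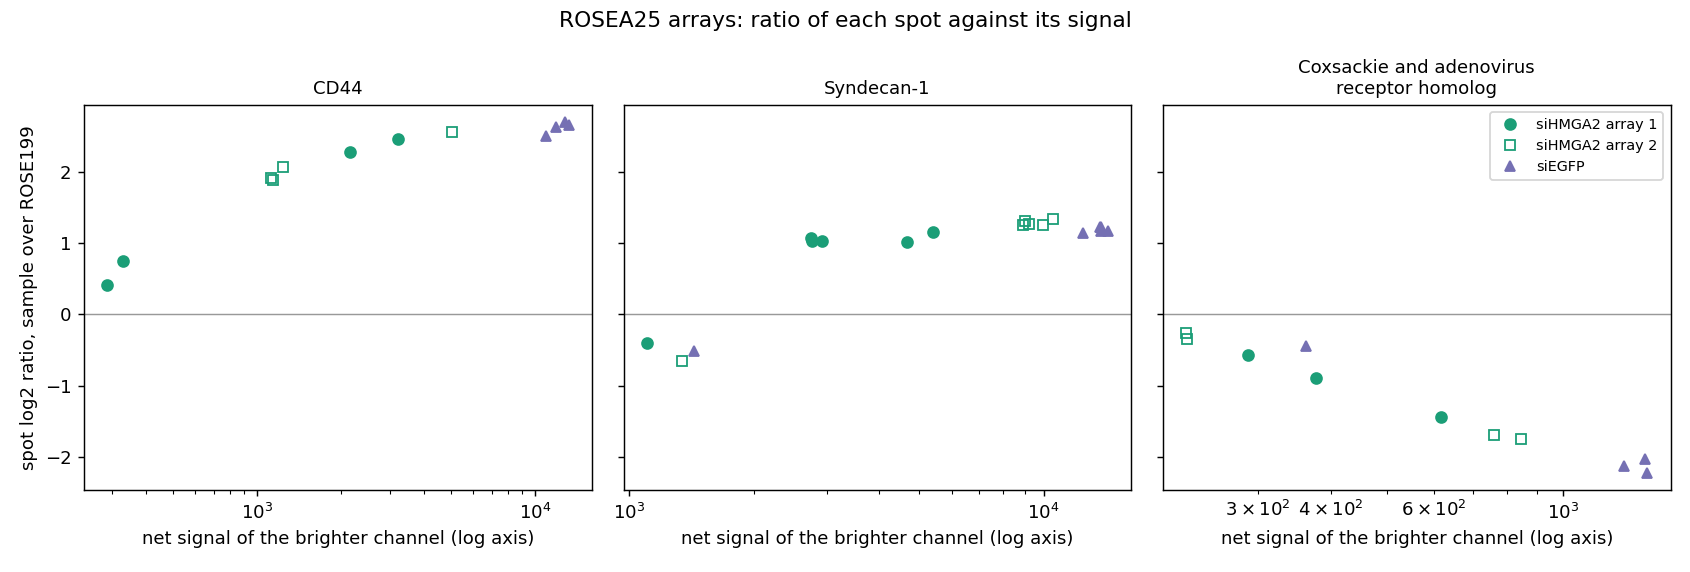
Log2 ratio of each spot over ROSE199 (vertical axis) against the net signal of its brighter channel (horizontal log axis) on the 3 ROSEA25 arrays, for CD44, Syndecan-1 and the receptor homolog. CD44 spots on siHMGA2 array 1 run to 0.41 at low signal, homolog spots lie nearer 0 where they are dim, and the dimmest Syndecan-1 point of each array is its sixth spot.

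Syndecan-1 showed 1 value in 5 of its spots and another in the sixth. Over all 6 spots it was at 0.82 and 0.96 on the siHMGA2 arrays and 0.91 on the siEGFP array, and at -0.05 and 0.00 on the HMGA2 arrays and 0.11 on the empty vector array. The 3 ROSEA25 ratios lay together and above the other 3. Averaged over all spots, Syndecan-1 in siEGFP cells was 0.96 ± 0.19 above ROSE199 and in siHMGA2 cells 0.89 ± 0.12 above it, both just short of the size a call needs. Between siHMGA2 and siEGFP cells the difference was -0.07 ± 0.22, the smallest in size of the 5 members in that comparison.

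The first 5 Syndecan-1 spots lay close together, with an SD of 0.01 to 0.06 on each array. Their ratios were 1.02 to 1.16 and 1.25 to 1.34 on the siHMGA2 arrays and 1.15 to 1.23 on the siEGFP array. They were -0.09 to -0.06 and -0.06 to -0.02 on the HMGA2 arrays and 0.15 to 0.18 on the empty vector array. The sixth spot was at -0.41 and -0.65 on the siHMGA2 arrays and -0.52 on the siEGFP array, with the opposite sign to the other 5. It was at 0.07 and 0.22 on the HMGA2 arrays and -0.19 on the empty vector array, again outside the range of the other 5 on each array.

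The sixth spot's place on the array was also unlike that of the others. It lay at row 11 and column 7 of its subgrid, and in each of the other 15 subgrids that place held a spot of a gene with 5 spots in 1 repeated layout. The other 4 places of that layout, in the subgrid of Syndecan-1, carried the name Polyhomeotic mRNA, which had only 4 spots in all. Polyhomeotic mRNA was also the feature whose ratios came nearest to the sixth spot among all 311, with a root mean square difference of 0.08 over the 6 arrays, against 1.23 to the mean of Syndecan-1's other 5 spots. Its ratios were -0.44 and -0.47 on the siHMGA2 arrays and -0.50 on the siEGFP array, and 0.06 and 0.30 on the HMGA2 arrays and -0.20 on the empty vector array. The files name the spot Syndecan-1, and whether that name is right was not tested beyond these values.

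Without the sixth spot, a setting chosen after its values were seen, Syndecan-1 passed the call in both comparisons with ROSE199. It was then higher in siEGFP cells by 1.26 and in siHMGA2 cells by 1.17. The median over all 6 spots, which a single spot moves little, gave 1.25 and 1.14 for the same comparisons. Each of the first 5 spots, fitted alone, passed the call, by 1.19 to 1.31 in siEGFP cells and 1.14 to 1.20 in siHMGA2 cells.

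**Figure D3:**
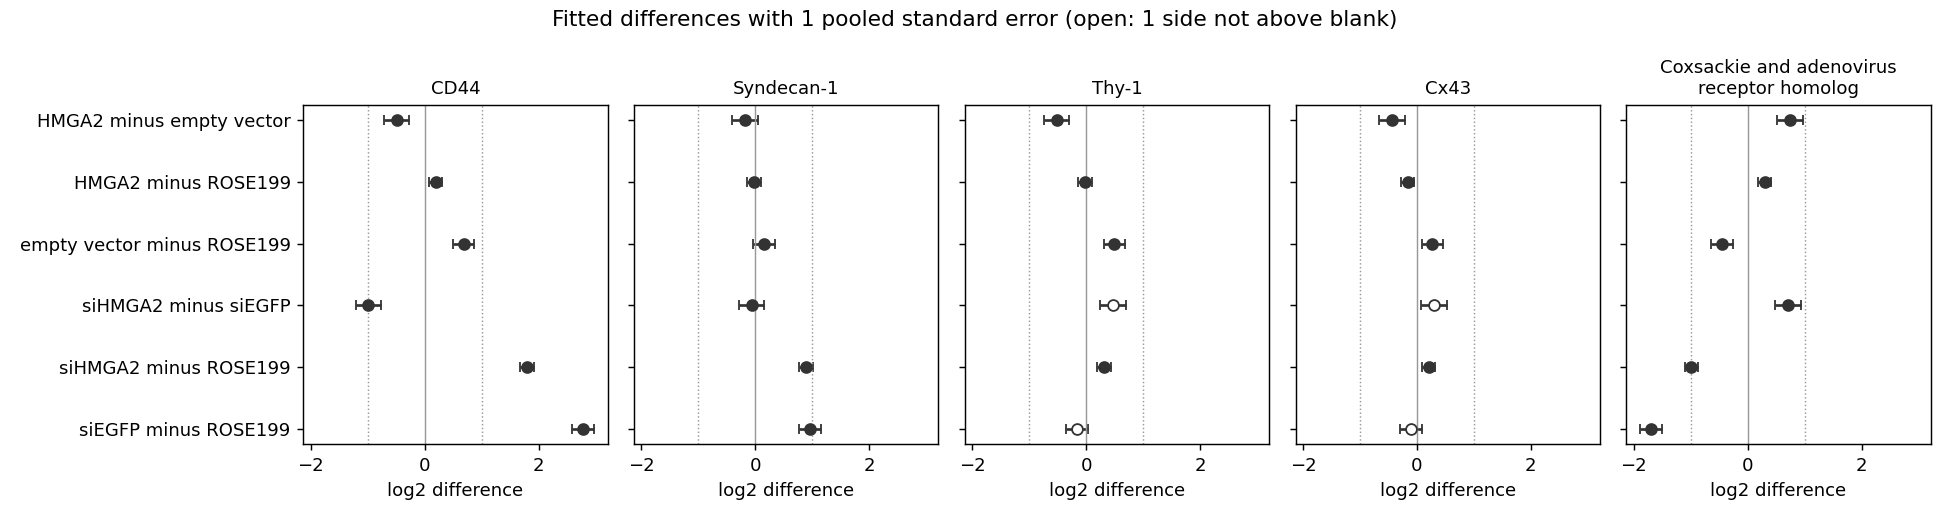
Fitted log2 differences (horizontal axis) for the 6 comparisons (vertical axis) in each of the 5 features, with bars of 1 pooled standard error. Dotted lines mark a size of 1 and open circles a comparison in which 1 side was not above blank spots. CD44 at 2.78 and 1.79 and the receptor homolog at -1.70 are the values past the dotted lines.

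The Coxsackie and adenovirus receptor homolog ran opposite to CD44. It was at -0.96 and -1.01 on the siHMGA2 arrays and -1.71 on the siEGFP array, and at 0.26 and 0.34 on the HMGA2 arrays and -0.46 on the empty vector array. All 3 ROSEA25 ratios lay below the ratios of the 3 arrays of transfected ROSE199 cells, and the 2 HMGA2 arrays were the only ones above 0. It was called lower in siEGFP cells than in ROSE199, by a log2 difference of -1.70 ± 0.19, or 3.24-fold, and that call held under 15 of 15 other settings. In siHMGA2 cells it was -0.99 ± 0.12 from ROSE199, short of a call, which 3 of 15 settings made. Its signal in the siEGFP channel was 185 against a blank limit of 142, so the low side was measured close to the floor of the array.

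The homolog's spots also split by brightness. On siHMGA2 array 2 the spots with ROSE199 signals of 847 and 761 had log2 ratios of -1.74 and -1.69, and those with signals of 139 and 157 had -0.26 and -0.35. The ROSE199 signals of that dim pair lay below the blank limit of 160. On the siEGFP array 3 spots lay at -2.04 to -2.22, and the dimmest, with a ROSE199 signal of 362, lay at -0.44. With spots weighted by signal the homolog was at -2.02 in siEGFP cells and -1.23 in siHMGA2 cells, each relative to ROSE199.

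Between the 2 siRNAs the homolog was 0.71 ± 0.22 higher on the log2 scale in siHMGA2 cells than in siEGFP cells, which was not called. Under 3 of 15 settings it was called higher, among them the median over spots, at 1.13. Its difference between HMGA2 and empty vector cells was 0.75 ± 0.22, the largest in size of the 5 members in that comparison and also not called. That value ran from 0.72 to 1.37 over the 15 settings and passed the call under 3, which were median centring, beta actin centring and arrays scaled to one spread.

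Of the 5 members, 0 were called between siHMGA2 and siEGFP cells, beside 10.9% of all features (8.68% higher and 2.25% lower), and 0 between HMGA2 and empty vector cells, beside 7.72% (4.5% higher and 3.22% lower). Against ROSE199, 0 were called in HMGA2 cells, beside 6.75% of all features (4.5% higher and 2.25% lower). In empty vector cells 0 were called against ROSE199, beside 2.89% (1.29% higher and 1.61% lower). No unadjusted p exists beside these counts of 0, since each group was taken as 1 RNA. Apart from the homolog, the members were lower in HMGA2 than in empty vector cells by sizes under 1. CD44 was at -0.49, Syndecan-1 at -0.18, Thy-1 at -0.51 and Cx43 at -0.44, each ± 0.22. Against ROSE199, empty vector cells were at 0.69, 0.16, 0.50 and 0.27 for these members in that order. The HMGA2 cells were at 0.19, -0.02, -0.02 and -0.16. The empty vector values rest on 1 array without a dye swap. With no dye term the Thy-1 difference was -0.12 and that of Cx43 -0.21. For Syndecan-1 the sign held under 12 of 15 other settings. It was 0.02 with median centring, 0.06 with the deposited ratios and 0.27 with beta actin centring, a setting under which the median of all features in that comparison was 0.21, beside 0.00 as reported.

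**Figure D4:**
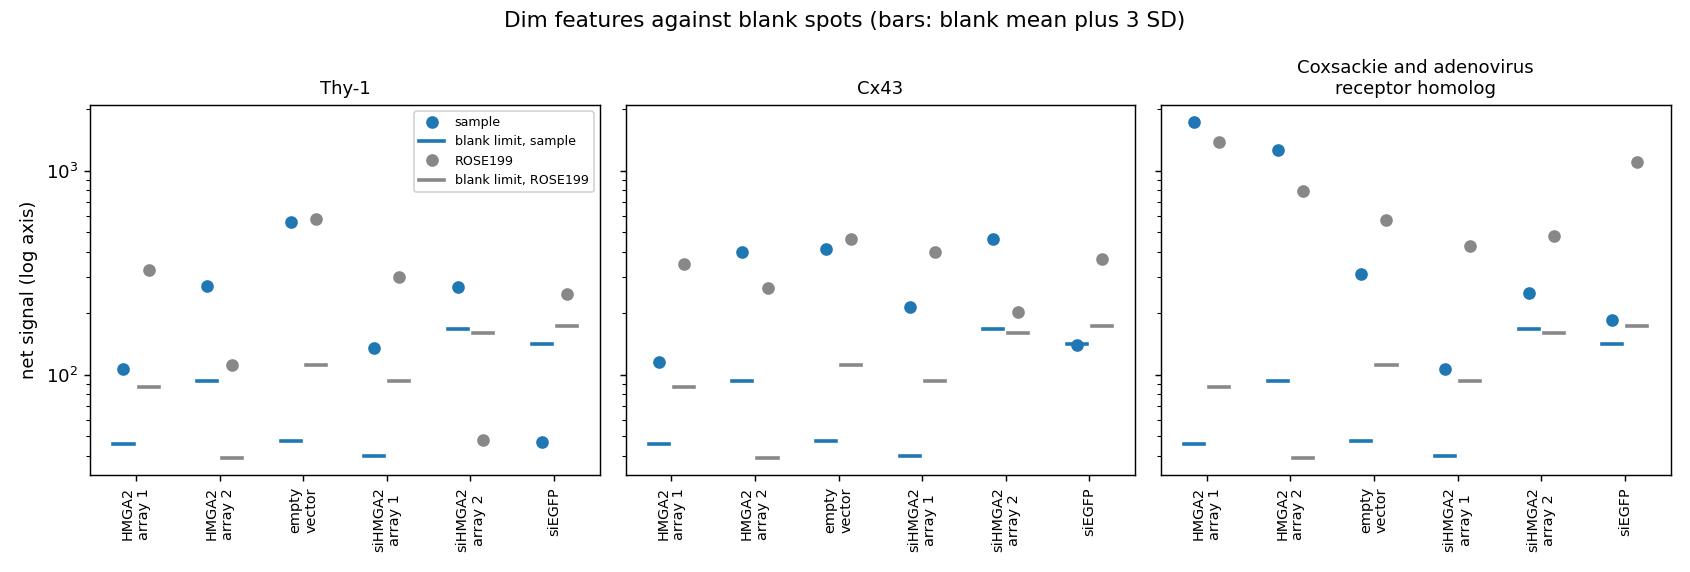
Net signal (vertical log axis) of Thy-1, Cx43 and the receptor homolog in the sample channel (left, blue) and the ROSE199 channel (right, grey) of each array. Bars of the same colour mark the blank limit, the mean of blank spots plus 3 SD. Thy-1 lies below it in the siEGFP channel and in the ROSE199 channel of siHMGA2 array 2, and Cx43 just below it in the siEGFP channel.

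Thy-1 and Cx43 were dim on most arrays. The gap between the 2 dye orientations of a group was up to 1.06 for Thy-1 and 0.67 for Cx43. That was larger than any of their fitted group differences. Thy-1 was at -0.22 and 0.84 on the siHMGA2 arrays and -0.55 on the siEGFP array, and at -0.27 and 0.24 on the HMGA2 arrays and 0.10 on the empty vector array. In both groups with a dye swap the array with the sample in Cy3 gave the higher ratio, by 1.06 in siHMGA2 cells and 0.51 in HMGA2 cells. The HMGA2, siHMGA2 and empty vector values overlapped, the single siEGFP value lay below all of them, and no Thy-1 difference was called. The siEGFP signal of Thy-1 was 46.4 against a blank limit of 142, and on siHMGA2 array 2 only 2 of the 5 spots were usable, with a ROSE199 signal of 47.6 against a limit of 160. Thy-1 was above the limit on the other siHMGA2 array, with 135 in the sample and 300 in the ROSE199 channel. The siEGFP level of Thy-1 is therefore known only as below the blank limit. Folds were computed from channel levels scaled across arrays, with siEGFP set at the lowest level above blank and no dye term. Thy-1 was then 1.18-fold lower in siEGFP cells than in ROSE199, and 1.24-fold higher in siHMGA2 than in siEGFP cells. Neither fold is taken as a minimum, since the dye gaps above were not removed. The fitted difference between siEGFP cells and ROSE199, with the dye term, was smaller than the 1.18-fold, at -0.16 ± 0.19 (1.12-fold). It kept its sign under 12 of 14 other settings and was 0.02 with arrays scaled to one spread and 0.26 with the deposited ratios. The Thy-1 spots of the siEGFP array also split. Those with ROSE199 signals of 320, 330 and 332 had ratios of -1.04, -1.07 and -1.04. Those with ROSE199 signals of 142 and 111, below that channel's blank limit of 173, had ratios of 0.15 and 0.23. The mean of -0.55 lies between these spots. The direction of Thy-1 in siEGFP cells is therefore not settled by this array.

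Cx43 was at -0.13 and 0.54 on the siHMGA2 arrays and -0.33 on the siEGFP array, and at -0.28 and -0.04 on the HMGA2 arrays and 0.05 on the empty vector array. The single siEGFP value was again the lowest, the HMGA2 and siHMGA2 values overlapped, and the empty vector value lay above both HMGA2 values and between the siHMGA2 values. The array with the sample in Cy3 was again the higher, by 0.67 in siHMGA2 cells and 0.24 in HMGA2 cells. The siEGFP signal was 140.0 against a blank limit of 141.5, so Cx43 missed the limit by little there. On that array the spots at 82.8 and 80.0 had ratios of -0.69 and -0.88, and the spots at 202 and 195 had 0.10 and 0.16. From scaled channel levels with no dye term, Cx43 was 1.57-fold lower in siEGFP cells than in ROSE199 and 2.29-fold higher in siHMGA2 cells than in siEGFP cells. These folds use Cx43's own siEGFP signal. The fitted differences for the same pairs, with the dye term, were smaller, at -0.10 ± 0.19 (1.07-fold) and 0.31 ± 0.22 (1.24-fold), so neither fold is a minimum. The authors' deposited table gives Cx43 ratios of -0.26 and 0.72 for the siHMGA2 arrays and -1.53 for the siEGFP array, and with those ratios Cx43 was called lower in siEGFP cells than in ROSE199 and higher in siHMGA2 than in siEGFP cells, by -1.02 and 1.25.

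A search of the feature names for adhesion and junction families added E-cadherin, P-cadherin and Beta 3 integrin. The cadherins are adhesion molecules of epithelial adherens junctions, and Beta 3 integrin is a subunit of matrix receptors. Together with the 5 members these features made 8. The search went by name and left out RHAMM and NPRAP, a catenin relative called higher in siEGFP cells against ROSE199, at 1.13. In siEGFP cells against ROSE199, 1 of the 8 was called higher (CD44) and 3 lower, namely the receptor homolog, E-cadherin at -2.55 and P-cadherin at -3.73, beside 11.3% of all features called higher and 15.4% lower. The median of the 8 was -0.18, beside -0.02 over all features. In siHMGA2 cells against siEGFP cells, 2 of the 8 were called higher, E-cadherin at 1.13 and P-cadherin at 1.60, and none lower, beside 8.68% of all features called higher and 2.25% lower. The median was 0.39, beside 0.03 over all features. Beta 3 integrin was called in none of the 6 comparisons, with -0.20 in siEGFP cells against ROSE199.

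A second list of 16 features, chosen with earlier results of these data known, held matrix ligands, growth factors and proteases. It also held PAI1, Cav-1 and EGFR. Other matrix features, growth factors and proteases were left out, so its counts depend on the choice. Of the matrix features left out, Fibronectin at -0.69 and Tenascin C at -0.52 were not called in siEGFP cells against ROSE199. Agrin at -2.28 was called lower. The left-out growth factors FGF-2 at 0.20, VEGF at 0.42, PDGF at 0.88 and TGF beta at 0.05 were not called there. Neither were CSF-1 at 0.48, IGF-2 at -0.14 and the protease GelatinaseA at -0.48. In siEGFP cells against ROSE199, 5 of the 16 were called higher, among them the growth factor precursor TGF alpha at 2.74 and the matrix proteases MMP-3 at 2.49 and MMP10 at 3.82, with Cathepsin D at 1.29 and Cav-1 at 1.12. The 4 called lower were Thrombospondin 1 at -3.77, Collagen alpha at -4.70, Cyr61 at -3.04 and FISP-12, the connective tissue growth factor, at -5.97. Of all features, 11.3% were called higher and 15.4% lower in that comparison. Between siHMGA2 and siEGFP cells, 4 of the 16 were called higher and 1 lower, beside 8.68% and 2.25% of all features. The 4 were Thrombospondin 1 at 1.13, Collagen alpha at 1.36, Cyr61 at 1.84 and FISP-12 at 1.09, and the 1 lower was TGF alpha at -1.37. Both comparisons share the 1 siEGFP array, so their values are not independent. The median of the 16 was -0.17 in that comparison and 0.21 in siEGFP cells against ROSE199, beside 0.03 and -0.02 over all features.

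For the members whose 4 group values spanned at least 1 on the log2 scale, the most alike features were named by the root mean square difference of the log2 ratio over the 6 arrays, among 283 features above blank. For CD44 these were E1B 19k Bcl-2 BP at 0.27, TGF alpha at 0.35 and Prkar2b at 0.40, beside a median of 1.58 over the candidates. TGF alpha was at 0.88 and 1.87 on the siHMGA2 arrays and 2.53 on the siEGFP array. On the same arrays E1B 19k Bcl-2 BP was at 1.67, 2.48 and 2.53, and Prkar2b at 0.97, 1.60 and 2.18. Each of these features thus had the order of CD44 over the ROSEA25 arrays. For the receptor homolog the most alike features were HPRT at 0.27, Rnd3-Rho8 at 0.28 and WT1 at 0.29, beside a median of 1.02. The span of Syndecan-1 was 0.98 over all spots, just under the limit of 1 below which no alike features were sought, and those of Thy-1 and Cx43 were 0.66 and 0.44.

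**Figure D5:**
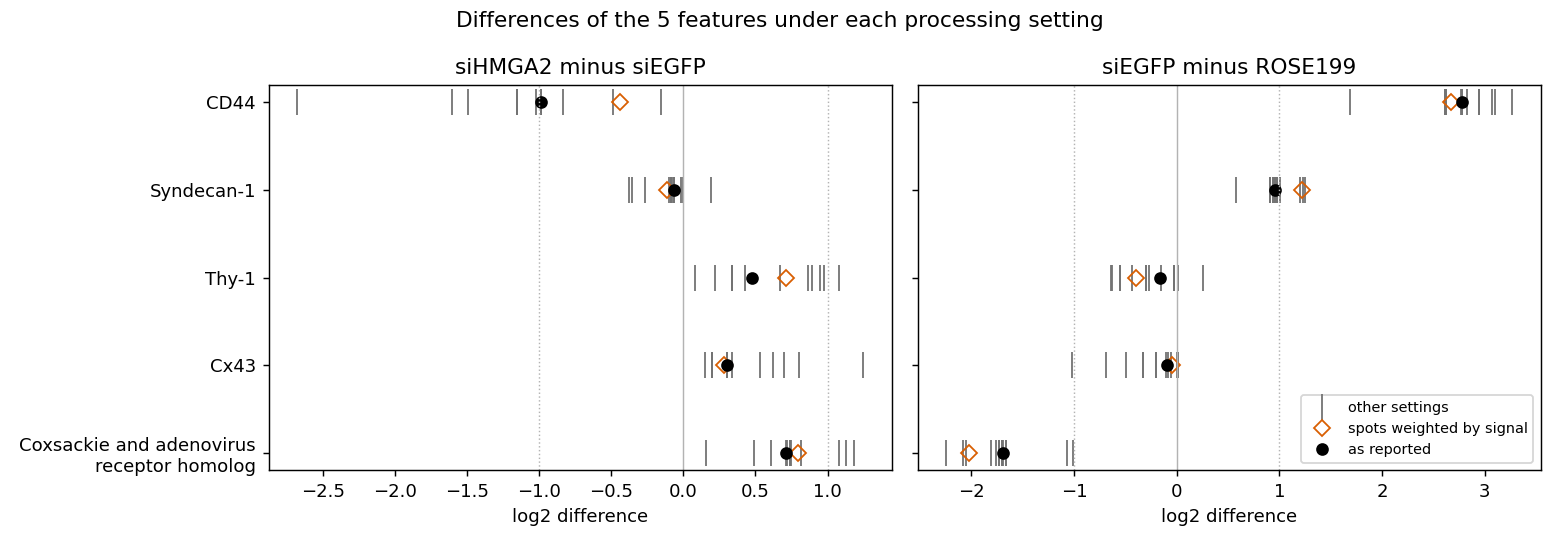
Log2 differences (horizontal axis) of the 5 features (vertical axis) under the main setting (filled circle), 15 other settings (ticks) and with spots weighted by signal (diamond), for siHMGA2 minus siEGFP (left) and siEGFP minus ROSE199 (right). CD44 runs from -2.68 to -0.15 on the left and from 1.69 to 3.27 on the right.

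Of the 3 members above blank on both sides, the order by difference between siEGFP cells and ROSE199 was CD44 at 2.78, Syndecan-1 at 0.96 and the receptor homolog at -1.70, each ± 0.19, and each neighbour in it differed beyond that error. Thy-1 and Cx43 were not above blank in siEGFP cells and have no place in the order. Over the 15 other settings CD44 stayed called higher and the receptor homolog stayed called lower in all 15. Syndecan-1 kept its sign in 15 of 15 and was called in 4 of them. Those values include its sixth spot, without which, a setting chosen after its values were seen, Syndecan-1 passed the call.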

How the data were processed

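RNA was measured on 6 two-colour spotted arrays, and the files used are scanner tables of foreground and background intensity per spot, deposited by the authors with no normalization, per the file headers. A deposited table of log2 ratios per feature served as an alternative; its correction and centring are not given in the sources used here. The members and lists were chosen with earlier results of these data known.

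Background was corrected with normexp (offset 50), and each array was normalized by loess (span 0.3, 4 iterations) in limma 3.58.1 and R 4.3.3, with blank, beta actin and poor spots at weight 0. Ratios were turned to sample over ROSE199, the 2 swapped arrays with sign changed, and averaged over spots. lmFit fitted 4 group values and 1 dye term on all 311 features. The pooled SD was 0.17, the scaled median absolute residual with 1 residual degree of freedom per feature. A feature was above blank where its mean net signal passed the blank mean plus 3 SD. Spots marked poor numbered 21 to 64 of 1760 per array, and 269 features were above blank in both channels on all arrays. The number of arrays limits the precision. Named genes were the 5 members, HMGI-C and K-ras, and the called features of 2 gene lists. Also named were the 3 features nearest to a member with a span of 1 or more. Polyhomeotic mRNA, and features given as left out of the lists, were named after their values were seen. The fit was tested on simulated data, and 15 alternatives were run for each comparison, plus 2 chosen after seeing the spots.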

Additional observations from a re-analysis of the deposited data

How the results depend on the processing

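No paired analysis was made. Each group was taken as 1 RNA and its array numbers as dye-swapped labellings, so groups were given no pairing. The number of features called moved by over 1.5 times in 3 of the 6 comparisons. For HMGA2 against empty vector it was 24, and 41 with beta actin centring and 40 with arrays scaled to one spread; leaving out 1 array gave 27 to 40, the most without HMGA2 array 1. For siHMGA2 against siEGFP it was 34, and 9 with arrays scaled to one spread and 65 with the deposited ratios; leaving out 1 array gave 16 to 42, the fewest without siHMGA2 array 1. For empty vector against ROSE199 it was 9, and 24 with arrays scaled to one spread and 15 with a dye term for each quantification day; leaving out 1 array gave 9 to 15. The share of calls that were higher moved by over 10 points with scaling or centring in some comparisons. For HMGA2 against empty vector it was 58.3%, and 82.9% with beta actin centring and 72% with the deposited ratios. For siHMGA2 against siEGFP it was 79.4%, and 61% with median centring and 58.5% with the deposited ratios. For HMGA2 against ROSE199 it was 66.7%, and 56.2% with the deposited ratios, and for empty vector against ROSE199 it was 44.4%, and 27.3% with either centring. Beta actin centring shifted the median of all features to 0.21 for HMGA2 against empty vector, 0.16 for HMGA2 against ROSE199 and -0.26 for siEGFP against ROSE199, and the deposited ratios shifted it to -0.11, 0.12 and -0.13 for HMGA2 against empty vector, for siEGFP against ROSE199 and, last, for siHMGA2 against siEGFP. The cause of these changes was not tested.

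Without siHMGA2 array 1 the CD44 difference between siHMGA2 and siEGFP was -0.49, and CD44 in siHMGA2 against ROSE199 was 2.12 without it and 1.46 without siHMGA2 array 2. CD44 in siHMGA2 cells lost its call against ROSE199 only with the deposited ratios, at 0.43. Thy-1 was called lower in HMGA2 than in empty vector cells under 1 of 14 settings, median centring, at -1.05, and higher in siHMGA2 than in siEGFP cells under 1 of 14, beta actin centring, at 1.08. Signal over blank limits both Thy-1 and Cx43, which left the fit that kept only features above blank on all arrays.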

Other observations

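RHAMM, another receptor for hyaluronan and a feature of its own on the array, did not follow CD44: its log2 ratios over ROSE199 were 0.21 and -0.10 on the siHMGA2 arrays and 0.41 on the siEGFP array, and 0.51 and -0.06 on the HMGA2 arrays and 0.18 on the empty vector array. It was called in none of the 6 comparisons. RefSeq lists RHAMM among the synonyms of Cd44, so the 2 features would be merged by a search on that name.

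Over the whole array, 115 features had spots that differed over 4-fold in signal on at least 1 array, which made 195 pairs of feature and array. The dimmest spot had the ratio nearer 0 in 104 of the 195 (53.3%). On siHMGA2 array 2 it did in 48 of 54 (88.9%), on siHMGA2 array 1 in 11 of 21 (52.4%) and on the empty vector array in 14 of 48 (29.2%). The members gave 8 of these pairs, and the dimmest spot was nearer 0 in all 8: CD44 and Syndecan-1 on both siHMGA2 arrays, Syndecan-1 on the siEGFP array (for Syndecan-1 always the sixth spot), the receptor homolog on HMGA2 array 2, and CD44 and the receptor homolog on the empty vector array. Spots more than 1 (log2) away from their feature's median made up 1.71% of spots on siHMGA2 array 2, 1.18% on the siEGFP array and at most 0.576% on the other 4 arrays.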
